A study of Homo sapiens
Mus musculus with 3 samples.

Results

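Described here are 8 mouse genes that encode regulators of the T lineage, Tcf7 (ENSMUSG00000000782), Lef1 (ENSMUSG00000027985), Gata3 (ENSMUSG00000015619), Bcl11b (ENSMUSG00000048251), Tox (ENSMUSG00000041272), Myb (ENSMUSG00000019982), Runx1 (ENSMUSG00000022952) and Notch1 (ENSMUSG00000026923). They were taken by their Ensembl identifiers, and all 8 were found among the 27998 mouse genes of the read tables. Single-cell libraries had been made on the ICELL8, an instrument that dispenses cells into nanowells and images them, from a mixture in equal parts of 4 cultured lines. EL4 is a mouse CD4+ T lymphoma line, IVA12 is a mouse B-cell hybridoma, and both human lines, Jurkat and TALL-104, are of T-cell origin. The group 3'DE (the kit's own 3'-end protocol) had 2 libraries, taken as replicates 1 and 2. The group 3'DE-UMI, in which primers were removed before amplification so that unique molecular identifiers (UMIs) could be counted, had 1 library. Per the study's supplement, 3'DE replicate 1 came from another batch of the cell mixture than 3'DE replicate 2 and the 3'DE-UMI library.

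T-cell progenitors receive Notch signals in the thymus, and Notch1 is the receptor that starts this program. Tcf7 (TCF-1) and Gata3 are switched on early and, with Bcl11b, fix the T-cell fate. Lef1 is a relative of Tcf7 that binds the same kind of DNA element, Tox is an HMG-box factor needed for the CD4+ lineage, and Myb and Runx1 are broader blood-cell factors that also act in B-lineage and stem cells. An EL4 cell is a transformed mature T cell and a hybridoma is an antibody-secreting fusion cell, so neither line stands for a normal thymocyte or B cell.

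The 3 read tables summed to 35581264, 109702878 and 44883618 reads in 3'DE replicate 1, 3'DE replicate 2 and the 3'DE-UMI library. After filtering, 922, 773 and 700 wells were mouse, and these fell into 2 clusters. A total of 1445 wells were named EL4-like and 950 IVA12-like, from marker genes that were not used in that clustering. The 6 T-cell markers with an identifier (Cd3e, Cd3g, Cd3d, Thy1, Lck and Lat) summed to 3012 to 3830 reads per 1000000 mouse reads (CPM) in EL4-like wells and to 23.6 to 109 CPM in IVA12-like wells. The 5 B-lineage markers summed to 2445 to 4610 CPM in IVA12-like wells and to 33.8 to 56.0 CPM in EL4-like wells. Jchain, the joining chain of secreted antibodies, made up most of that sum, at 2123 to 4363 CPM. The defining B-cell gene Cd79a had 0 reads in IVA12-like wells. The B-cell label therefore rested on Jchain, Cd79b and Cd74. Of these, Cd74 was low, with 20, 83 and 64 reads in IVA12-like wells, in the library order of the read totals. These were 2.29, 5.38 and 6.28 CPM. The 3'DE replicate 2 stood apart: 85.0% of its IVA12-like wells held a read of a T-cell marker. This share was 15.5% in 3'DE replicate 1 and 20.9% in the 3'DE-UMI library. A read of a B-lineage marker lay in 40.3%, 64.9% and 12.6% of EL4-like wells, in the library order of the read totals. Each pair of libraries shared 469 to 539 well barcodes, which are positions on a chip and not shared cells.

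The first comparison asked whether these regulators differed between the T line and the B-lineage line inside the same libraries. Reads were summed over the wells of each line and library, so that a level is a CPM value of 1 sum and the library is the replicate. In these sums fewer transcribing cells and less RNA per cell cannot be told apart. The levels are not scaled by length, so they are compared between lines and libraries for 1 gene at a time, and between genes only in the measure of likeness given last. Of the 8 genes, 7 were higher in EL4-like wells and 1, Notch1, was higher in IVA12-like wells. All 8 passed the filter on low counts and an adjusted p under 0.05 in edgeR's quasi-likelihood test with the library as a block. Over all 11266 genes tested, 20.5% were called higher and 20.1% lower in EL4-like wells. The share of all genes whose sums did not overlap between lines is not given here. A lack of overlap is therefore only a description of each gene below. The median log2 difference was 5.58 over the 8 genes and -0.03 over all genes tested.

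**Figure D1:**
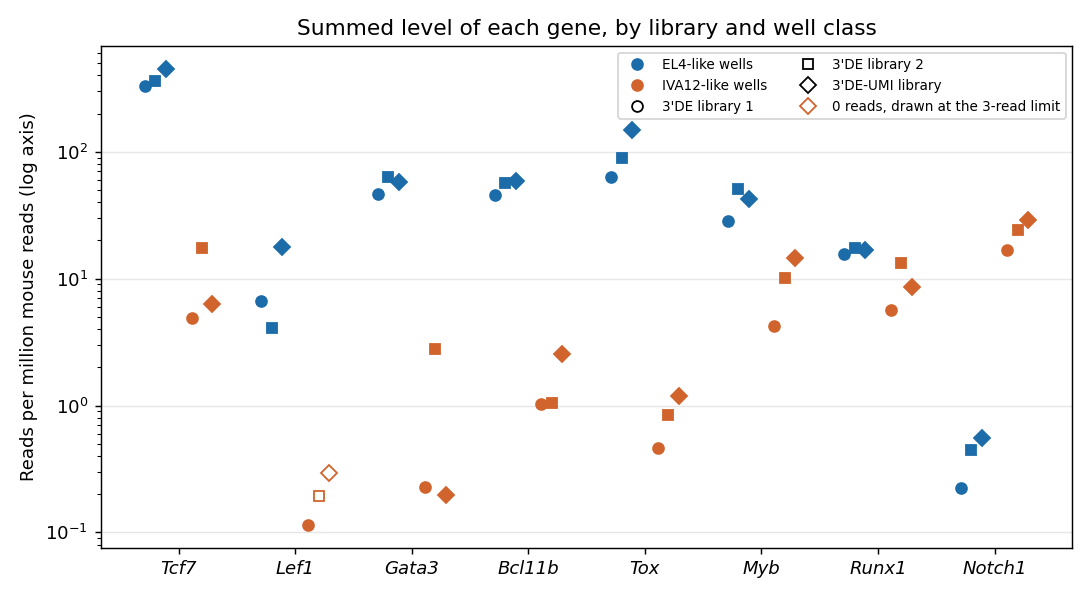
Summed level of each gene in reads per 1000000 mouse reads (log axis) for EL4-like (blue) and IVA12-like (orange) wells, with 1 symbol per library and open symbols for sums with 0 reads drawn at the limit that 3 reads set. Blue and orange symbols separate for every gene, by the least for Runx1, and Notch1 is the gene with orange above blue.

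Tcf7 was measured at 328 CPM in 3'DE replicate 1, 362 CPM in 3'DE replicate 2 and 451 CPM in the 3'DE-UMI library in EL4-like wells. In IVA12-like wells of the same libraries it was at 4.93, 17.4 and 6.28 CPM. The 2 sets of values did not overlap, and 3'DE replicate 2 was the highest of the IVA12-like sums. Of the 268 reads in that sum, 92 came from 1 well. The log2 difference was 5.71 (SE 0.39), with an adjusted p of 2.78e-05 by edgeR's quasi-likelihood test.

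Lef1, the relative of Tcf7, had few reads. It was at 6.61, 4.10 and 17.8 CPM in EL4-like wells (88, 165 and 323 reads), in the library order given for Tcf7. In IVA12-like wells it had 1, 0 and 0 reads. Summed over the libraries this was 576 against 1 read, a ratio of 276 with an exact 95% interval of 49.4 to 10923 that covers counting error only. The adjusted p was 0.000797 in edgeR's quasi-likelihood test, and the fitted log2 difference of 8.01 (SE 1.10) depends on the prior count.

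Gata3, a zinc-finger factor of T-cell commitment and of type 2 helper cells, was at 46.3, 63.5 and 57.8 CPM in EL4-like wells. In IVA12-like wells it was at 0.229, 2.79 and 0.196 CPM, which were 2, 43 and 2 reads. The groups did not overlap, and the 43 reads of 3'DE replicate 2 lay in 10 wells, 31 of them in a single well. The log2 difference was 6.25 (SE 0.65, edgeR adjusted p = 0.000192).

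Bcl11b, a repressor that closes off other fates, was at 45.3, 57.0 and 58.9 CPM in EL4-like wells and at 1.03, 1.04 and 2.55 CPM in IVA12-like wells. The values did not overlap between lines, and the 3'DE-UMI library was the highest of the IVA12-like sums. The log2 difference was 5.44 (SE 0.37, edgeR adjusted p = 2.72e-05). Of its 26 reads in IVA12-like wells of the 3'DE-UMI library, 25 came from 1 well.

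Tox was at 63.6, 89.6 and 149 CPM in EL4-like wells and at 0.459, 0.843 and 1.18 CPM in IVA12-like wells. The 3'DE-UMI library was the highest in both lines, and the groups did not overlap. Its log2 difference was 7.14 (SE 0.30, edgeR adjusted p = 6.44e-06), and 7.12, 6.73 and 6.98 when taken within each library. The IVA12-like side of these values was only 4, 13 and 12 reads, which lay in 3, 5 and 1 wells. In 3'DE replicate 2, 9 of the 13 reads came from 1 well.

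Myb, a factor of blood progenitors that is also expressed in proliferating lymphoid cells, was at 28.4, 51.3 and 42.6 CPM in EL4-like wells. It was at 4.24, 10.05 and 14.6 CPM in IVA12-like wells, from 37, 155 and 149 reads in 22, 20 and 12 wells. The groups did not overlap, but the gap was narrower than for the genes above, with a log2 difference of 2.42 (SE 0.32, edgeR adjusted p = 0.000681).

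Runx1, the DNA-binding part of core-binding factor, had the closest levels in the 2 lines. It was at 15.6, 17.5 and 16.9 CPM in EL4-like wells and at 5.62, 13.4 and 8.54 CPM in IVA12-like wells. The IVA12-like sums were 49, 206 and 87 reads in 23, 28 and 8 wells. Of the 87 reads of the 3'DE-UMI library, 41 came from 1 well. The EL4-like sums lay within a narrow range, and the highest IVA12-like sum, of 3'DE replicate 2, lay just under the lowest EL4-like sum. The log2 difference was 1.16 (SE 0.38, edgeR adjusted p = 0.0400). This call was lost without 3'DE replicate 1 (edgeR adjusted p = 0.236) and without 3'DE replicate 2 (edgeR adjusted p = 0.0660), with log2 differences of 0.96 and 1.43. It was also lost without the library block (edgeR adjusted p = 0.0978).

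Notch1, the receptor, was the exception in direction. It had 3, 18 and 10 reads in EL4-like wells (0.225, 0.447 and 0.552 CPM) and 146, 375 and 296 reads in IVA12-like wells (16.7, 24.3 and 29.1 CPM). The groups did not overlap, and every IVA12-like sum was above every EL4-like sum. The log2 difference was -5.59 (SE 0.49, edgeR adjusted p = 8.81e-05). Summed over the libraries, the IVA12-like level was 55.0 times the EL4-like level, with an exact 95% interval of 38.4 to 81.5 for counting error. In the UMI table, the EL4-like wells held 0 UMIs of Notch1 and the IVA12-like wells held 27.

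The markers of the same fit give a scale for these values. All 6 T-cell markers were called higher in EL4-like wells, by 5.40 (Cd3e, a chain of the T-cell receptor complex) to 6.74 (Cd3d, another) on the log2 scale. Of the 5 B-lineage markers, 3 were tested and called lower, by -4.77 (Cd74) to -6.06 (Jchain).

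**Figure D2:**
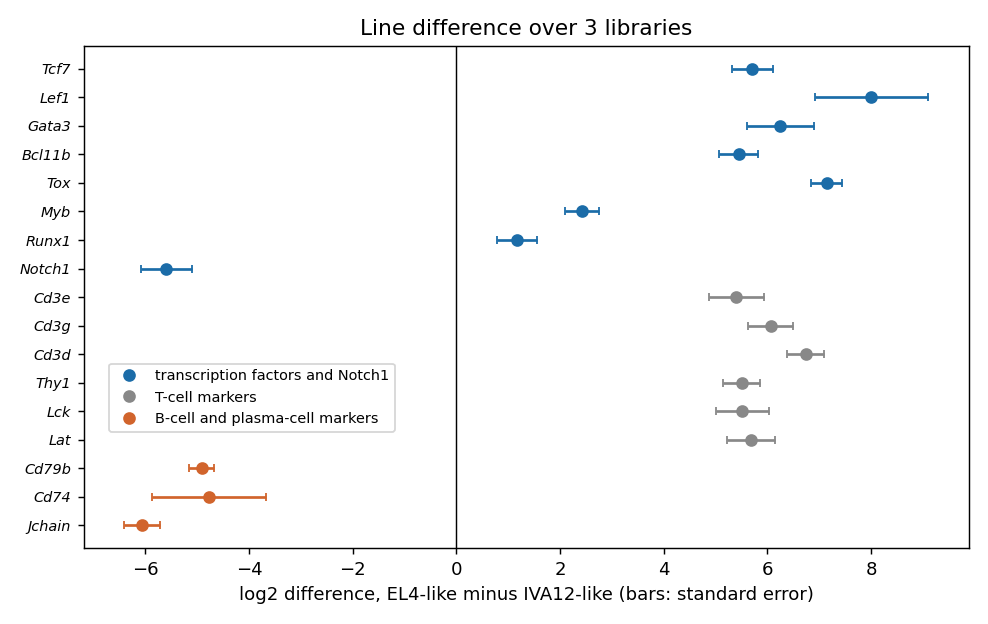
The log2 difference between EL4-like and IVA12-like wells over 3 libraries with its standard error, for the 8 genes (blue), T-cell markers (grey) and B-lineage markers (orange). Tcf7, Gata3 and Bcl11b lie among the T-cell markers, Myb at 2.42 and Runx1 at 1.16 lie closer to 0, and Notch1 lies among the B-lineage markers at -5.59.

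The IVA12-like level can be set against the EL4-like level of the same library, beside the same ratio for the T-cell markers, which a B-lineage cell should lack. For those 6 markers it was 0.625% to 1.57% in 3'DE replicate 1, 2.07% to 5.79% in 3'DE replicate 2 and 0.948% to 5.82% in the 3'DE-UMI library. Tcf7 (1.503%, 4.79% and 1.39%) lay inside these ranges in every library. Tox (0.721%, 0.940% and 0.790%) lay inside the first and below the other two. Gata3 (0.495%, 4.39% and 0.340%) lay inside or below them.

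Bcl11b (2.28%, 1.82% and 4.33%) was above the range only in 3'DE replicate 1, where 9 reads stood behind it. Myb, at 14.9%, 19.6% and 34.3%, and Runx1, at 35.9%, 76.3% and 50.7%, were above the T-cell markers in all 3 libraries. Notch1 was at 5261% to 7425%. Lef1, with 1, 0 and 0 reads in IVA12-like wells, gives no usable ratio. No test was made of these ratios.

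**Figure D3:**
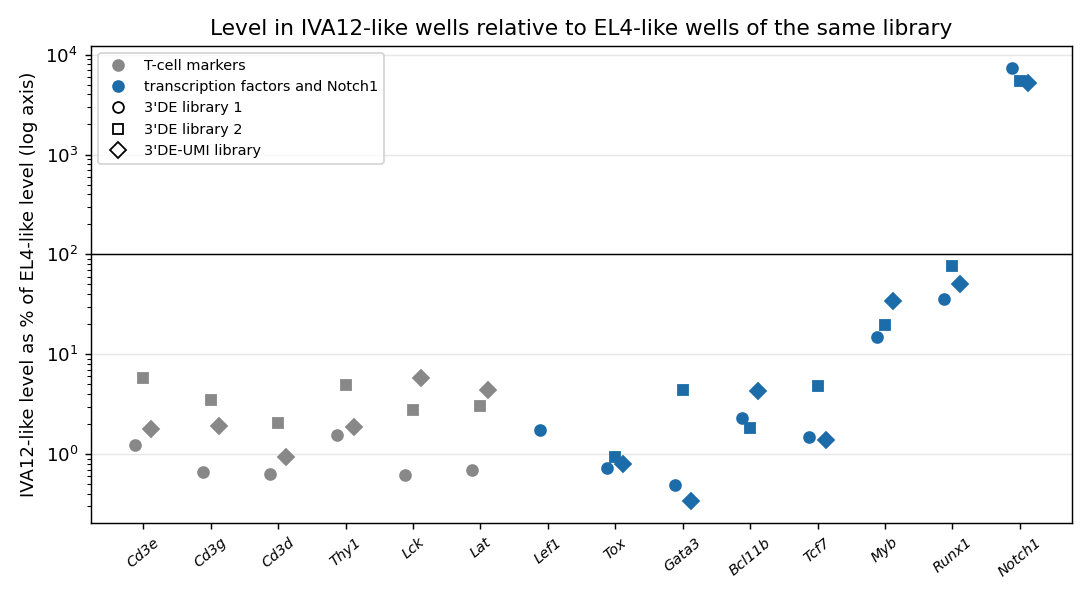
Level in IVA12-like wells as a percentage of that in EL4-like wells of the same library (log axis, 1 symbol per library), for T-cell markers (grey) and the 8 genes (blue), with sums of 0 reads left out. Myb and Runx1 lie above all T-cell markers, and Notch1 lies above the line at 100%.

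Values were also taken from IVA12-like wells in which no T-cell marker had a read, a choice made after seeing the data. There were 377, 41 and 182 such wells, and the 41 wells of 3'DE replicate 2 were shallow, with a median of 5954 reads. In 3'DE replicate 1 and the 3'DE-UMI library, Runx1 was at 6.63 and 6.79 CPM and Myb at 4.70 and 9.89 CPM in these wells. Notch1 was at 14.5 and 29.8 CPM. Tcf7 had 25 and 13 reads, at 3.46 and 1.92 CPM, and Tox had 2 and 0 reads. In 3'DE replicate 2, 6 reads of Tcf7, 14 of Notch1 and 1 of Myb were left, and Runx1 had 0 reads, where 3 reads would be 8.06 CPM, so that its level was not measurable at this depth. With wells of each line restricted in this way, 7 of the 8 genes were called and Runx1 was not (log2 difference 2.05, edgeR adjusted p = 0.0836), while the number of all genes called fell from 4571 to 2417.

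How often a gene was seen in single wells was described next. The share of EL4-like wells with at least 1 read of Tcf7 was 88.4% (95% exact interval 85.2 to 91.2) of 476 wells in 3'DE replicate 1. It was 86.0% (82.6 to 88.9) of 499 wells in 3'DE replicate 2 and 70.2% (65.9 to 74.3) of 470 wells in the 3'DE-UMI library. The 3'DE-UMI interval lay below both others, although its Tcf7 level was the highest of the 3. These intervals, all at 95%, cover counting error only, and no test of a share was made, since exact permutation with 2 libraries on one side and 1 on the other cannot reach 0.05.

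Gata3 was seen in 47.1% and 45.3% of EL4-like wells of the 3'DE libraries and in 14.9% of the 3'DE-UMI library. Bcl11b was seen in 35.1%, 33.9% and 14.3%, and Myb in 33.0%, 39.7% and 13.4%. For each of these genes the 3'DE-UMI share was the lowest, and its interval did not reach those of the 3'DE libraries. Tox was seen in 49.6%, 48.5% and 31.9% and Runx1 in 15.3%, 15.6% and 4.89% of wells, with the same order. Lef1 was rare everywhere, at 5.04%, 5.61% and 3.83%, with overlapping intervals. Notch1 was seen in 3, 9 and 2 EL4-like wells, and in 13.2%, 21.9% and 13.0% of IVA12-like wells. The lowest share in the 3'DE-UMI library was not particular to these genes. Among T-cell markers in EL4-like wells it also held for Cd3d, Thy1, Lck, Cd3g (96.8%, 93.0% and 67.7%) and Lat (93.7%, 93.0% and 42.6%). Cd3e (23.3%, 33.3% and 27.7%) was the exception. The study also reported fewer genes per EL4 cell with 3'DE-UMI than with 3'DE.

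The wells of human cells, which should lack mouse transcripts, gave the background. At median depths of 21426, 34368 and 16457 reads, they held a read of mouse Tcf7 in 1.13%, 17.4% and 2.33% of wells. The median depths of the EL4-like wells were 28429, 37602 and 30018 reads, and those of the IVA12-like wells 20352, 21947 and 33649 reads. At these unequal depths the IVA12-like wells held Tcf7 in 3.81%, 27.0% and 3.91% of cases. These shares were above those of the human wells in each library, although the intervals met in 3'DE replicate 1 and the 3'DE-UMI library. The human cells are T-cell lines, so free mouse RNA and human reads aligned to the mouse gene cannot be told apart in them. Every other member was seen in 0% to 3.93% of human wells. For Gata3, 0 of 533 human wells of 3'DE replicate 1 had a read, which allows a share of up to 0.563% by the limit of 3 wells and has an exact 95% upper bound of 0.690%. In IVA12-like wells, Gata3 (0.448%, 3.65% and 0.870%) and Bcl11b (0.673%, 4.01% and 0.870%) had higher shares than the human wells of the same library, which ranged from 0% to 2.69% for Gata3 and from 0.188% to 3.51% for Bcl11b, by less than 1 percentage point in each. Myb (4.93%, 7.30% and 5.22%), Runx1 (5.16%, 10.2% and 3.48%) and Notch1 in IVA12-like wells were above the human wells in all 3 libraries, with intervals that met only for Myb in 3'DE replicate 2.

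**Figure D4:**
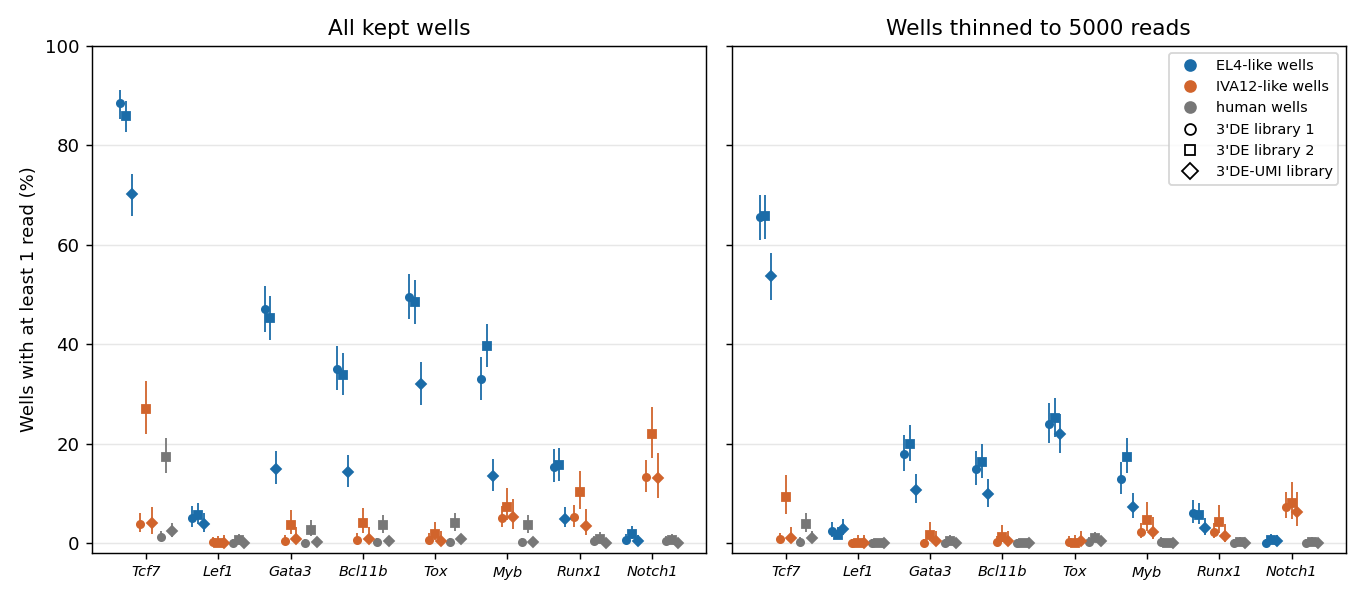
Percentage of wells with at least 1 read of each gene, with 95% exact binomial intervals, in EL4-like (blue), IVA12-like (orange) and human (grey) wells, for all kept wells (left) and for wells thinned to 5000 reads (right), with 1 symbol per library. Tcf7 lies between 70.2% and 88.4% in EL4-like wells at full depth and between 53.6% and 65.7% after thinning.

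To set libraries of different depth side by side, each well was thinned to 5000 reads, which left out 17, 21 and 13 EL4-like wells and 19, 37 and 6 IVA12-like wells. Tcf7 was then seen in 65.6%, 65.7% and 53.6% of EL4-like wells. The 3'DE-UMI share was closer to the 3'DE shares, but its interval still met neither of theirs. At 2000 reads the intervals met, with 45.4% (40.8 to 49.96), 43.2% (38.8 to 47.7) and 39.6% (35.1 to 44.2). Thinning sets reads equal and not molecules, and the 3'DE-UMI group was 1 library. The thinned shares therefore describe these libraries and not the protocols. Tox was seen in 24.0%, 25.1% and 21.9%, with overlapping intervals. Gata3 was seen in 17.9%, 19.9% and 10.7%, and here the 3'DE-UMI interval (8.04 to 13.9) stayed below those of 3'DE replicate 1 (14.5 to 21.7) and 3'DE replicate 2. At 2000 reads it met that of 3'DE replicate 1. Notch1 was seen in 7.26%, 8.02% and 6.25% of IVA12-like wells and in 0, 3 and 2 EL4-like wells. At 5000 reads, Tcf7 was seen in 0.703%, 9.28% and 0.893% of IVA12-like wells and in 0.227%, 3.80% and 0.994% of human wells. The IVA12-like share was thus not above the human share in the 3'DE-UMI library, and the intervals met in every library.

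Detection was higher in deep than in shallow wells of each library. The wells of each line and library were divided by depth into 4 bins of equal size. In the shallowest bin of EL4-like wells Tcf7 was seen in 71.4%, 64.0% and 50.8% of wells, and in the deepest bin in 95.8%, 100% and 87.3%. The 100% belonged to 125 wells of 3'DE replicate 2 with a median of 171439 reads. Wells without a Tcf7 read numbered 55, 70 and 140, and their median depths of 17388, 11217 and 17303 reads were below those of wells with one (29575, 44158 and 36104 reads). Gata3 went from 31.9%, 23.2% and 3.39% in the shallowest to 58.8%, 70.4% and 24.6% in the deepest bin. In IVA12-like wells Notch1 went from 8.04%, 7.25% and 5.17% to 15.2%, 34.8% and 20.7%.

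**Figure D5:**
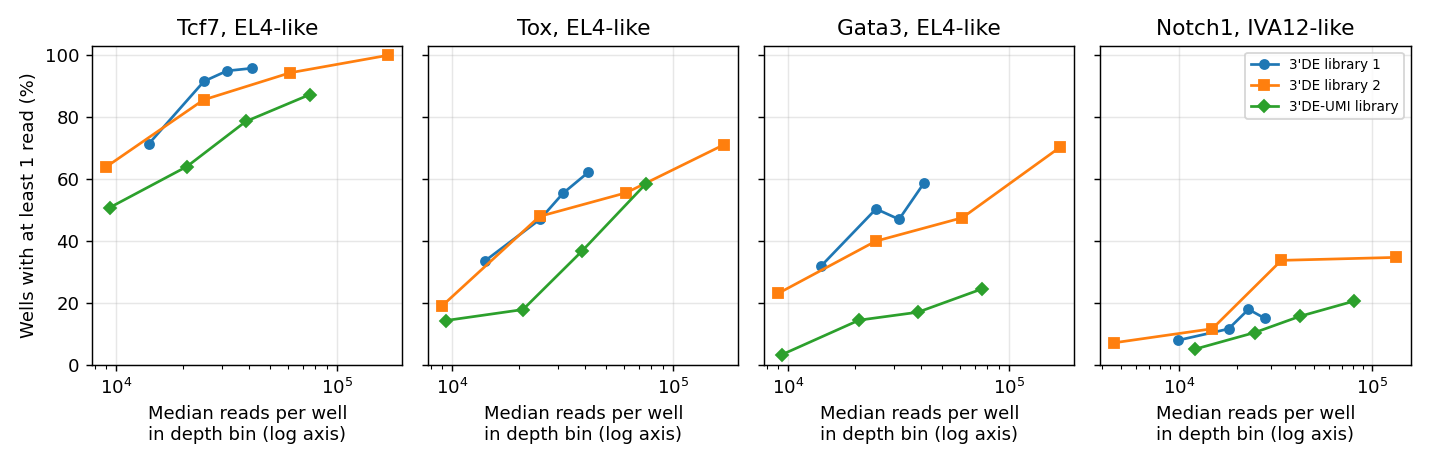
Percentage of wells with at least 1 read of Tcf7, Tox and Gata3 (EL4-like wells) and of Notch1 (IVA12-like wells) against the median depth of each of 4 depth bins (log axis), with 1 line per library. All lines end higher than they start, and the 3'DE-UMI line for Gata3 runs from 3.39% to 24.6%, below those of both 3'DE libraries.

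At full depth an EL4-like well held reads of a mean of 2.74, 2.76 and 1.54 of the 8 genes, and none of them in 4.62%, 6.61% and 18.3% of wells. An IVA12-like well held a mean of 0.291, 0.759 and 0.278. No well held more than 7. At 5000 reads per well the EL4-like means were 1.44, 1.52 and 1.10. Among the same thinned EL4-like wells, Gata3 was seen in 20.3%, 21.0% and 12.7% of wells with a Tcf7 read and in 13.3%, 17.7% and 8.49% of wells without one. Tox was seen in 26.2%, 28.0% and 24.5% against 19.6%, 19.5% and 18.9%. Bcl11b, at 14.95%, 13.7% and 11.4% against 14.6%, 21.3% and 8.02%, and Myb, at 11.6%, 18.5% and 9.80% against 15.2%, 15.2% and 4.25%, had no common direction over the libraries. These shares are given as a description, since both reads come from the same well and share its RNA yield.

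The number of reads in a well that held a gene varied between libraries, also between those of the same protocol. The median number of reads in an EL4-like well that held the gene was 8, 16 and 14 for Tcf7. It was 2, 5 and 12 for Gata3 and 3, 6 and 13 for Tox. The 10 wells with most reads held 18.5%, 29.8% and 38.5% of the Gata3 reads and 75%, 72.1% and 94.1% of the Lef1 reads. By UMI counts, EL4-like wells held 696 UMIs of Tcf7, 202 of Tox, 93 of Bcl11b, 76 of Myb, 75 of Gata3, 23 of Lef1 and 23 of Runx1. There were 10.1 (Myb) to 14.04 (Lef1) reads for each UMI of these genes. The share of EL4-like wells with a UMI was 62.1% for Tcf7, 29.8% for Tox and 12.3% for Gata3, each below the share with a read. Lef1 went the other way, with a UMI in 4.89% and a read in 3.83% of these wells. Reads and UMIs were counted by different software, so reads for each UMI do not measure copies of 1 molecule. In IVA12-like wells Myb had 13 UMIs, Tcf7 9, Runx1 6, and Lef1 0.

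The second comparison asked whether the summed levels differed between protocols within a line. No member was called in EL4-like wells, where 12.2% of 11784 genes were called, or in IVA12-like wells, where 2.45% of 11643 genes were called. Here 2 libraries stood against 1, so the spread of the single UMI library was taken to equal that of the others. In EL4-like wells 2 members had an unadjusted p under 0.05 in edgeR's quasi-likelihood test. Lef1 was 1.60 higher on the log2 scale in the 3'DE-UMI library (SE 0.56, edgeR adjusted p = 0.0731), and Tox was 0.83 higher (SE 0.35, edgeR adjusted p = 0.132). The DESeq2 test also called no member in either line.

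The other members differed by less in EL4-like wells. Tcf7 was at 0.25 (SE 0.31), Bcl11b at 0.07 (SE 0.38), Myb at -0.03 (SE 0.42), Gata3 at -0.05 (SE 0.38) and Runx1 at -0.11 (SE 0.48). Notch1, with its 31 reads in all, was at 0.55 (SE 2.01). Each of these differences was smaller than its standard error. In IVA12-like wells Lef1 did not pass the filter, and the others ranged from -3.00 (Gata3, SE 2.45) to 1.07 (Bcl11b, SE 1.71). Notch1, with the most reads there, was at 0.30 (SE 0.56, edgeR adjusted p = 0.839). Against 3'DE replicate 2 alone, which shared its cell mixture with the 3'DE-UMI library, the EL4-like differences were 2.05 for Lef1, 0.66 for Tox and 0.24 for Tcf7, with no test.

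The third comparison, of whether the line difference itself depended on the protocol, called none of the 8 genes and 2.2% of 13245 genes tested. Gata3 came closest, with a log2 interaction of 2.90 (SE 0.99, edgeR adjusted p = 0.0995), followed by Tcf7 at 1.15 (SE 0.43, edgeR adjusted p = 0.147). Both had an unadjusted p under 0.05, and DESeq2 called no member either. Both values rested on 3'DE replicate 2, in which the IVA12-like sums of these genes were the highest. Without that library they were 0.68 and 0.28, with no test.

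Among the 19 genes that could be named, the nearest in level over the 6 sums was taken as the gene with the smallest mean absolute difference in log2(CPM + 1). For Tcf7 it was Lat at 0.554, a T-cell signalling adaptor. For Gata3 and Bcl11b it was each other at 0.567, for Tox it was Bcl11b at 0.629 and for Myb and Runx1 it was each other at 0.839. Lef1 was nearest to Cd3e at 1.22, and Notch1 to the B-lineage marker Cd74 at 1.22.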

How the data were processed

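Per the labels and the study's methods, the authors made the deposited counts with STAR 2.7.0b inside mappa (read counts per gene and well barcode, all 3 libraries) and with Drop-seq tools and STAR 2.4.2a (UMI counts, 3'DE-UMI library), on the combined hg19 and mm10 reference of Cell Ranger 1.2.0. The values are unscaled whole numbers. The methods describe downsampling of reads, and whether the deposited counts were made from downsampled reads is not given in the sources used here.

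Wells with at least 1000 reads and 200 genes were kept, and wells with 10% or more reads of the other species were set aside as mixed. Doublets within a species were not called. Wells had been imaged for single cells, yet 180, 175 and 36 kept wells of 3'DE replicate 1, 3'DE replicate 2 and the 3'DE-UMI library were mixed. Wells that held both mouse lines were therefore not excluded. Mouse genes were split into 2 sets. Wells were clustered on each set with scanpy 1.11.5 (1000 variable genes, 20 components, 15 neighbours, Leiden resolution 0.1), and each gene was tested on wells clustered on the set without it. The assignments from the 2 sets differed for 4 of 2395 wells. Clusters were named from 11 markers, 1 of which is not reported here by name. Read counts were summed per library and line (6 sums) and tested with edgeR 4.0.16 (quasi-likelihood test, TMM, filterByExpr, Benjamini-Hochberg adjustment over all mouse genes tested), with library as a block for the line difference and the interaction. The SE is the log2 difference divided by the square root of the F statistic. DESeq2 1.42.0 was an alternative. The fits were tested on simulated data with known differences. Wells are not replicates, and since the labels do not say that the 3'DE libraries came from separate cultures, p-values measure the spread between these libraries only. The 3'DE replicate 2 and the 3'DE-UMI library shared a batch of the cell mixture, so the libraries were not all separate batches of cells. The residual degrees of freedom were 2 for the line difference and 1 for the other comparisons.

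The 8 members, the marker lists and the tests were chosen with earlier results of these data known. All members were to be named. Fixed lists of related genes (TCF/LEF partners, E proteins, Notch pathway, paralogs, other regulators, targets, B-lineage factors) could not be matched, because no table used here pairs mouse identifiers with symbols. The identifiers of 6 of 12 T-cell and 5 of 12 B-lineage markers were written from general knowledge. Gene lengths and sequences were not used here.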

Additional observations from a re-analysis of the deposited data

Results flagged for a closer look

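None of the 8 genes was called in the interaction test of line and protocol. Among the markers 2 were called, and over all 13245 genes tested 2.2% were, with 1 residual degree of freedom. Whether these 2 calls held under the other settings is not given here. Lck, a T-cell kinase, had a log2 interaction of -1.82 (edgeR adjusted p = 0.00763): it was at 220, 121 and 265 CPM in EL4-like wells and at 1.38, 3.37 and 15.4 CPM in IVA12-like wells of 3'DE replicate 1, 3'DE replicate 2 and the 3'DE-UMI library. Jchain had a log2 interaction of -1.37 (edgeR adjusted p = 0.0125), at 45.8, 49.8 and 28.2 CPM in EL4-like wells and 2123, 3363 and 4363 CPM in IVA12-like wells. Few wells stood behind the lower levels in the 3'DE-UMI library. Its 157 Lck reads in IVA12-like wells lay in 10 wells, 57 of them in 1 well. Of its 510 Jchain reads in EL4-like wells, 181 came from 1 well.

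In the UMI table, 1543 barcodes had no column in the read table, and they held 31 UMIs of the 8 genes among 66985 mouse UMIs. Of these, 15 were Tcf7, 8 were Tox and Lef1, Gata3, Bcl11b and Myb had 2 each. The 557 barcodes of human wells held 11 UMIs of the 8 genes among 32211 mouse UMIs. The origin of the UMIs under the other barcodes was not tested.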

How the results depend on the processing

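The line difference kept its direction for all 8 genes in all 13 alternatives, and 7 of the 8 genes kept their call. Runx1 lost it with equal numbers of wells (edgeR adjusted p = 0.0975) and under the 4 settings named in the text (without either 3'DE library, without the library block, and in wells free of the other line's markers), and its adjusted p ranged from 0.00978 to 0.236. The number of genes called for the line was 4571, from 3052 to 5075 with 1 library left out, 2973 with no replicate block and 2417 in wells free of the other line's markers. For the protocol in EL4-like wells 1435 genes were called, 939 with UMI counts and 773 in wells free of the other line's markers. In IVA12-like wells these were 285, then 179 with equal numbers of wells and 8 in wells free of the other line's markers. The interaction calls went from 292 to 38 with DESeq2, 8 with UMI counts and 1 in wells free of the other line's markers. No alternative called a member for the protocol or the interaction.

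Among these uncalled differences some changed sign. For the protocol in EL4-like wells, Bcl11b went to -0.47 with equal numbers of wells, Myb to 0.24 with UMI counts, and Bcl11b, Myb and Runx1 to -0.26, 0.18 and 0.061 in wells free of the other line's markers. There Runx1 went to 0.33 for the protocol in IVA12-like wells, and Bcl11b and Runx1 to 1.90 and -0.37 for the interaction. The interaction of Runx1 was -0.62 with equal numbers of wells and that of Notch1 was -5.63 with UMI counts. The causes were not tested. Leaving out a 3'DE library left the protocol and interaction fits with no test.

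The share of EL4-like wells with Tcf7 in 3'DE replicate 1, 3'DE replicate 2 and the 3'DE-UMI library was 65.6%, 65.7% and 53.6% at 5000 reads, 45.4%, 43.2% and 39.6% at 2000 reads, where the intervals met, and 82.8%, 81.0% and 62.1% with at least 2 reads. With at least 1 UMI it was 62.1%. Depth limits the statements on Lef1 in IVA12-like and Notch1 in EL4-like wells, which rest on 1 and 31 reads.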
